A study of Mus musculus with 6 samples.

Results

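Growth cone and immature neuron cytoskeleton genes were followed in mouse corticothalamic projection neurons, the cortical cells whose axons end in the thalamus. The set held 10 genes, Gap43, Basp1, Stmn1, Stmn2, Stmn3, Stmn4, Dcx, Tubb3, Dpysl3 and Map1b, chosen by name, out of 18193 genes with a probe set of a single symbol. They had 20 such probe sets of 34945, and all 10 genes passed the filter on dim genes that left 13645 to be tested. The neurons came from wild type C57BL/6 mice and formed 3 groups with 2 arrays each, E18, P3 and P6. Green fluorescent microspheres had been injected into the thalamus at E17.5, P1 and P4, and labelled cells were sorted by fluorescence from dissociated cortex at E18.5, P3 and P6. Labelling therefore lasted 1 day before E18 collection and 2 days before the others. Labelling time and stage cannot be told apart. Nothing in the labels says whether a stage's arrays came from separate animals or sorts, and the p-values below reflect just the differences among these 6 arrays.

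A growing axon ends in a growth cone, which steers by assembling and taking apart actin filaments and microtubules. GAP43 and BASP1 lie under the growth cone membrane and influence actin, stathmins bind free tubulin and promote microtubule shortening, and doublecortin, MAP1B and the CRMP protein encoded by Dpysl3 act on microtubules or their subunits. TUBB3 is a beta-tubulin of neurons and, with doublecortin, a common marker of young neurons.

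Between E18 and P3, 8 of the 10 genes rose and 0 fell, against 15.5% of all tested genes that were higher at P3 and 25.7% that were lower, or 41.3% in either direction (limma, Benjamini-Hochberg adjusted p below 0.05). Gap43, Stmn4, Tubb3 and Map1b rose by between 3.46-fold and 4.82-fold, and Stmn2 and Stmn3 by 2.75-fold and 2.26-fold. Basp1 and Dpysl3 rose by less, 1.92-fold and 1.75-fold, and Stmn1 and Dcx did not pass the test. Between P3 and P6, 0 of the 10 passed, and at P6 7 genes were higher and 0 lower than at E18, against 14.8% of all genes higher, 16.9% lower and 31.7% in either direction. Both comparisons use the same E18 arrays. The median change of the 10 genes from E18 to P3 was 1.32 log2 units, against -0.13 over all genes tested, and at P6 it was 1.58 against 0.08. For all 10 genes every P3 array lay above every E18 array, as for 36.4% of tested genes, while 44.2% lay wholly below. At P6 this held for 9 of the 10, the exception being Dcx, as for 43.4% of tested genes, while 37.4% lay wholly below. Quantile normalization moved the share of P3 calls that were higher to 50.8%, against 37.6% in the deposited scaling, and the median of all genes to 0.09.

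Markers of other cell types also differed between stages. At E18, 5 of 6 tested markers of dividing cells and 6 of 8 progenitor markers stood above their P3 levels by the test, and the marker means were 6.34 to 6.57 log2 units on the 4 later arrays against 11.43 and 11.45 on the E18 arrays for dividing cells. For progenitors they were 6.30 to 6.51 later against 10.81 and 10.83 at E18. All 7 corticothalamic markers rose at P3, with means of 9.81 to 10.57 on the later arrays against 8.01 and 8.08 at E18. From E18 to P3, markers of astrocytes fell for 5 of 7 genes, of microglia for 4 of 5 and of interneurons for 3 of 5. Those of blood vessels fell for 3 of 5 and of oligodendrocyte lineage cells for 2 of 4. The only tested red blood cell gene did not pass. At P6 relative to E18, 5 astrocyte, 0 microglia, 3 interneuron, 4 blood vessel and 1 oligodendrocyte lineage markers were lower. Marker means of the later arrays against those of E18 were 6.50 to 7.997 against 10.01 for astrocytes and 6.75 to 8.98 against 9.36 and 9.37 for microglia. They were 5.59 to 6.03 against 7.32 and 7.36 for interneurons, 6.30 to 6.48 against 7.39 and 7.43 for blood vessels, and 6.52 to 7.23 against 7.62 and 7.63 for the oligodendrocyte lineage. The part of these cells in the rises below was not tested, and in such bulk RNA fewer cells of a type and less RNA per cell cannot be told apart. The E18 arrays correlated at 0.998, against 0.961 for P3 and 0.976 for P6. The control for 18S ribosomal RNA was bright on 2 arrays, P3 replicate 2 (14.22) and P6 replicate 1 (13.92), and read 11.32 to 11.83 elsewhere. Other quality signs differed by stage. Hybridization controls read 9.85 to 13.01 on the later arrays against 9.25 and 9.59 at E18. The 3′ minus 5′ difference was 0.82 to 1.76 later against 0.56 and 0.58 at E18 for Actb, and 1.68 to 2.55 later against 1.44 and 1.48 at E18 for Gapdh. Their part in the rises was not tested beyond the 18S and hybridization covariates given below.

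**Figure D1:**
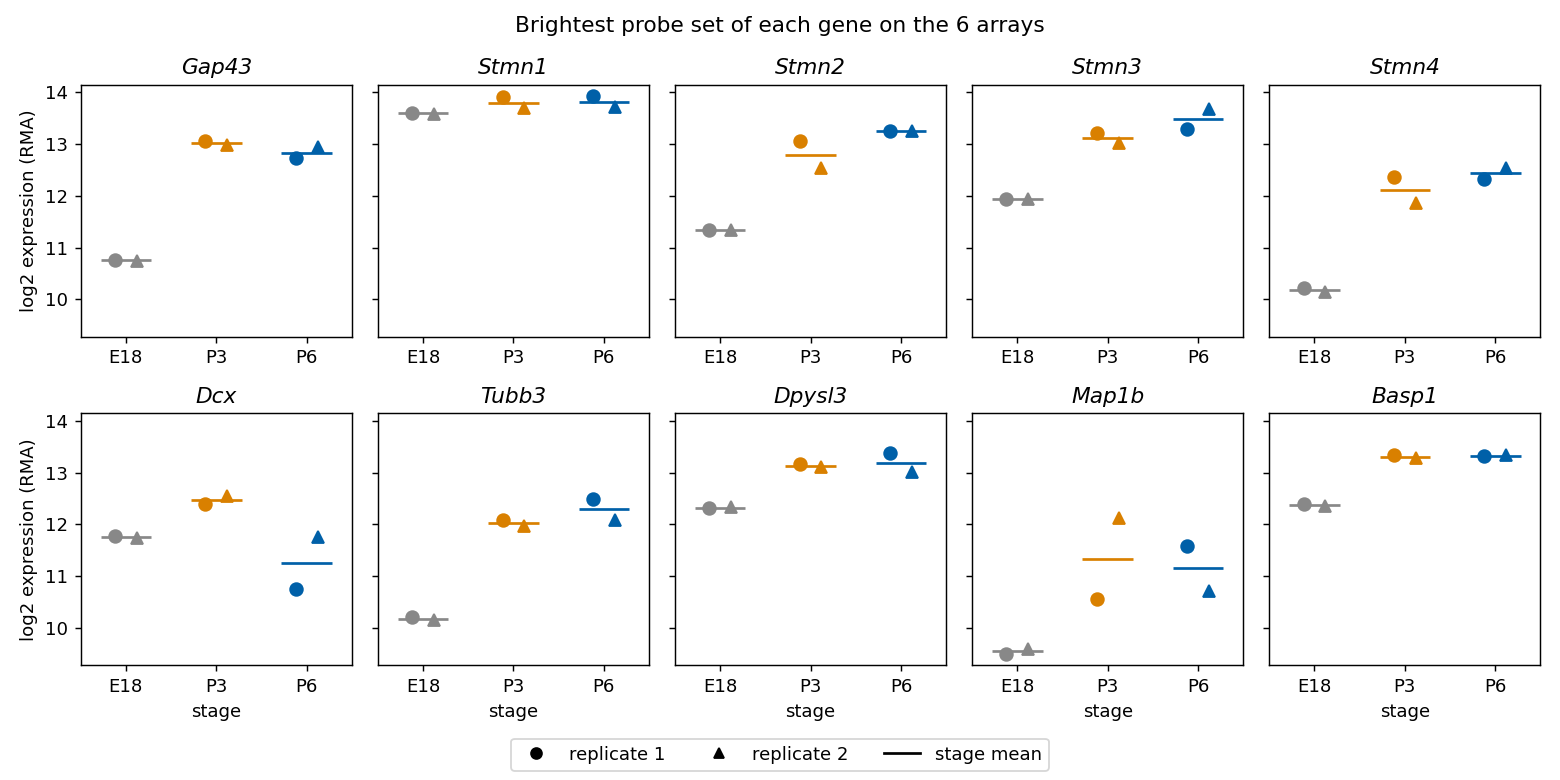
Log2 expression (vertical axis) by stage (horizontal axis) for the brightest probe set of each gene; circles and triangles are replicates 1 and 2, and lines are stage means. All P3 arrays lie above all E18 arrays for each gene, while Dcx at P6 and Map1b at P3 and P6 have widely separated replicates.

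Gap43, which encodes a major growth cone phosphoprotein, stood at 10.76 and 10.75 log2 units on E18 arrays, 13.07 and 12.98 on P3 arrays, and 12.73 and 12.94 on P6 arrays. All 4 postnatal arrays were high and none came near E18. The rise at P3 was 2.27 ± 0.18 log2 units (SE, limma adjusted p = 0.000121), larger than that of 98.6% of tested genes. At P6 it was 4.23-fold above E18 (adjusted p = 0.00017), and its P6 arrays both lay below its P3 arrays by a difference that did not pass the test (-0.19, 95% confidence interval -0.61 to 0.23). Basp1, which encodes a membrane-bound protein akin to GAP43 in its role, had 12.40 and 12.35 on E18 arrays, 13.34 and 13.28 on P3 arrays, and 13.32 and 13.34 on P6 arrays. The later arrays nearly coincided, above E18 by 0.94 ± 0.14 at P3 (SE, limma adjusted p = 0.00253) and by 0.96 at P6 (adjusted p = 0.00227). Each of these genes had 1 probe set.

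Stmn2, which encodes the neuronal stathmin SCG10 of growth cones, had 11.33 and 11.34 on E18 arrays, 13.06 and 12.53 on P3 arrays, and 13.24 and 13.26 on P6 arrays. Its P6 arrays were the highest, and all stages were separate. The change was 1.46 ± 0.21 at P3 (SE, limma adjusted p = 0.00201) and 1.92 at P6 relative to E18 (adjusted p = 0.000536). A further Stmn2 probe set rose 2.22 ± 0.26 at P3 and 2.37 at P6, so the fitted size differed between probe sets, a difference that was not tested.

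Stmn3, another stathmin of neurons, had 11.94 on both E18 arrays, 13.21 and 13.03 on P3 arrays, and 13.29 and 13.68 on P6 arrays, again with separate stages. Its rise was 1.18 ± 0.19 at P3 (SE, limma adjusted p = 0.00282) and 1.55 at P6 relative to E18 (adjusted p = 0.000781). Its brightest probe set carries the suffix x, which in this array design marks probes that may also bind other transcripts. The other Stmn3 probe set rose by 1.41 ± 0.24 and 2.10. Stmn4, also neuronal, had 10.21 and 10.13 on E18 arrays, 12.36 and 11.86 on P3 arrays, and 12.34 and 12.53 on P6 arrays. Both later stages were well above E18 and overlapped each other, with changes of 1.94 ± 0.24 (SE, limma adjusted p = 0.000919) and 2.26 (adjusted p = 0.000412).

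Stmn1, the stathmin found in dividing cells as well as in neurons, did not pass in any comparison between stages. It stood at 13.60 and 13.59 on E18 arrays, 13.90 and 13.69 on P3 arrays, and 13.92 and 13.72 on P6 arrays. All 6 values lay within a narrow range, and the change at P3 was 0.20 with a 95% confidence interval of -0.13 to 0.54 (limma adjusted p = 0.274). At most 0.0576% of probe sets on any array were brighter, and the brightest on each array lay between 14.09 and 14.32, so there was little room above it. Compression of its change by the top of the scale was not tested. A dimmer Stmn1 probe set had 10.84 and 10.87 on E18 arrays, 11.57 and 10.60 on P3 arrays, and 12.39 and 10.96 on P6 arrays, with no difference past the test. It was highest on P6 replicate 1 and lowest on P3 replicate 2. That Stmn1 changed by a different amount from the other stathmins was not tested.

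**Figure D2:**
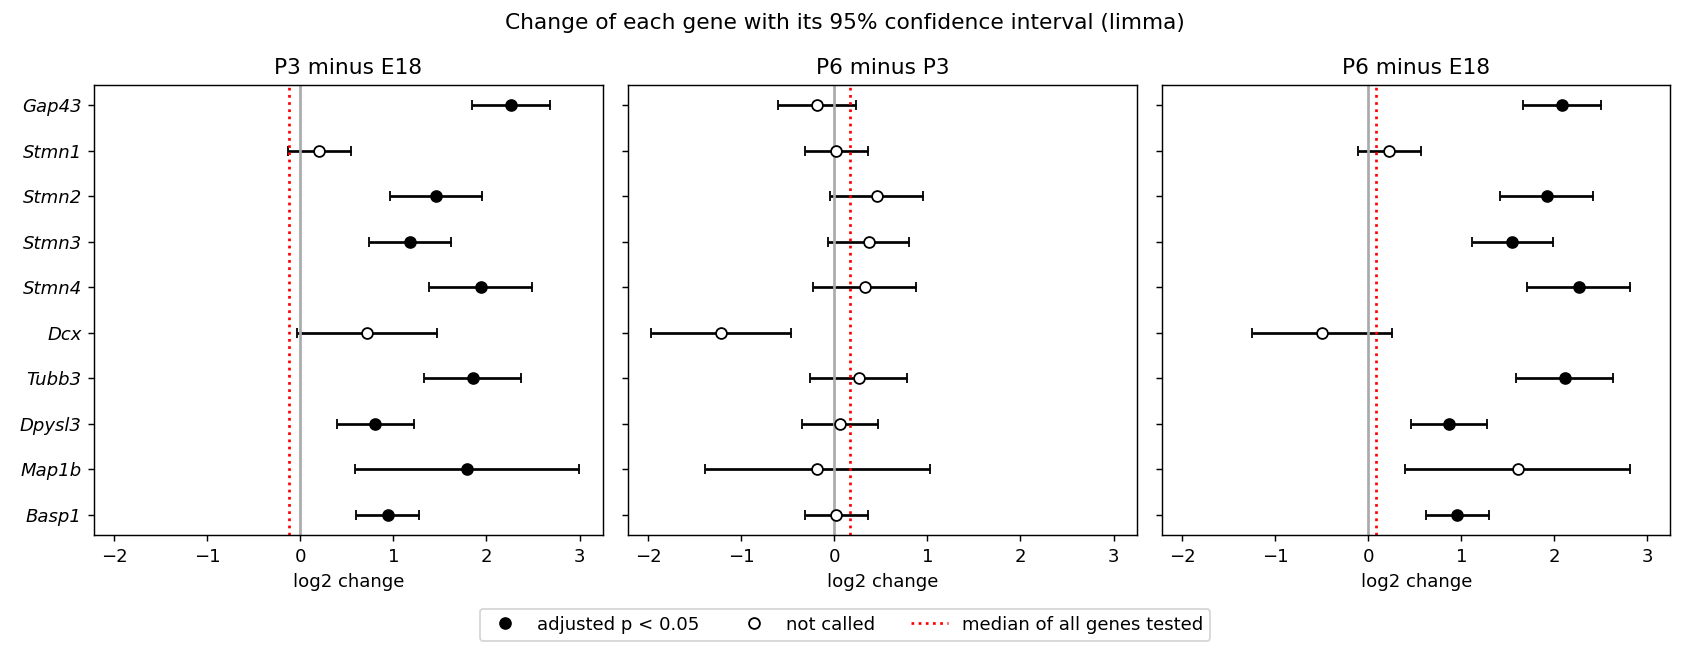
Log2 change (horizontal axis) of each gene in 3 comparisons, with 95% confidence intervals from limma; filled points had an adjusted p below 0.05 and the dotted line is the median of all genes tested. The points for Gap43, Stmn4 and Tubb3 lie near 2 in both comparisons with E18, and all points between P3 and P6 are open.

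Tubb3 had 10.22 and 10.15 on E18 arrays, 12.09 and 11.97 on P3 arrays, and 12.50 and 12.09 on P6 arrays. Its postnatal arrays overlapped between stages and stood apart from E18, by 1.85 ± 0.22 at P3 (SE, limma adjusted p = 0.000847) and by 2.11 at P6 (adjusted p = 0.000422). Dpysl3, which encodes the collapsin response mediator CRMP4, had 12.31 and 12.34 on E18 arrays, 13.16 and 13.10 on P3 arrays, and 13.38 and 13.01 on P6 arrays. The change was 0.81 ± 0.18 at P3 (SE, limma adjusted p = 0.0109) and 0.87 at P6 relative to E18 (adjusted p = 0.00842). Both calls were lost with the closely matched E18 arrays averaged into a single replicate, at adjusted p of 0.0874 and 0.0724, and without either E18 array (0.0894 and 0.0836 at P3, 0.0769 and 0.0683 at P6). With the hybridization control as a covariate they were also lost, at 0.55 (adjusted p = 0.0995) and 0.64 (adjusted p = 0.0633). These Dpysl3 values are of its brightest probe set, and its other probe sets passed in neither comparison with E18, as given below.

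Map1b, which encodes a microtubule-associated protein abundant in growing axons, had 9.50 and 9.59 on E18 arrays, 10.55 and 12.12 on P3 arrays, and 11.58 and 10.72 on P6 arrays. Every later array exceeded E18, but P3 replicate 2 and P6 replicate 1 were far above the other array of their stage. The change was 1.79 ± 0.52 at P3 (SE, limma adjusted p = 0.0295) and 1.61 at P6 relative to E18, just short of the test (adjusted p = 0.0506). Without P3 replicate 2 the P3 change was 1.005 and was not called (adjusted p = 0.0971), and after adding 18S signal to the model it was 0.98 (adjusted p = 0.0557). The P3 call was also lost without either E18 array (adjusted p = 0.0674 and 0.0595) or either P6 array (adjusted p = 0.0583 and 0.0581), with E18 averaged (0.0635) and with only the 2 stages in the fit (0.0586). With the hybridization control as a covariate the changes were 1.24 at P3 (adjusted p = 0.313) and 1.11 at P6 (adjusted p = 0.39). The P6 change was 1.18 without P6 replicate 1 (adjusted p = 0.293). It passed with the 18S covariate, at 0.99 (adjusted p = 0.0446). At an unchanged 1.61 it passed with sample numbers as a replicate block (adjusted p = 0.0326) and with a stricter filter on dim genes (0.0418). So it did with only the 2 stages in the fit (0.0139), with array weights (0.000257) and without either P3 array. It did not pass with quantile normalization (0.0661), median centring (0.0545), no filter (0.0575), no trend (0.0558) or every probe set tested (0.0678). Nor did it with the mean of its probe sets (0.112), E18 averaged (0.103) or a single E18 or P6 array left out.

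Dcx, which encodes the microtubule protein mutated in human lissencephaly, gave different results on its 4 probe sets and passed the test in no comparison between stages. Its brightest probe set had 11.77 and 11.75 on E18 arrays, 12.40 and 12.54 on P3 arrays, and 10.76 and 11.76 on P6 arrays. The P3 arrays were the highest, P6 replicate 2 was level with E18 and P6 replicate 1 was the lowest. The next brightest had 11.23 and 11.22 on E18 arrays, 12.03 and 11.62 on P3 arrays, and 12.12 and 11.34 on P6 arrays, so there P6 replicate 1 was the highest. The P6 mean was below E18 on the brightest probe set and above it on the other 3.

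On the brightest Dcx probe set the change at P3 was 0.72 (95% confidence interval -0.03 to 1.47, limma adjusted p = 0.106), and the mean of its probe sets gave 1.18 (adjusted p = 0.0921). The P3 change was called with only E18 and P3 in the fit (adjusted p = 0.0231), without P6 replicate 1 or 2 (0.0243 or 0.0265), with quantile normalization (0.96, adjusted p = 0.0467) and with the hybridization control as a covariate (1.42, adjusted p = 0.023). From P3 to P6 the change was -1.22 ± 0.32 (SE, adjusted p = 0.138, unadjusted p = 0.00624). It was -0.72 without P6 replicate 1, -0.60 for the mean of the probe sets and -0.10 on the next brightest. Against E18 the P6 change was -0.50 (adjusted p = 0.271), 0.58 for the mean of the probe sets, 0.0027 without P6 replicate 1 and -0.997 without P6 replicate 2, where it was called (adjusted p = 0.0244).

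Promoter windows from RefSeq on build GRCm38.p6 matched 5 of the 10 genes by symbol. The 250 bases before the annotated start are shown for 3 genes that rose together at P3, 2 of them chosen for a shared hexamer and Tubb3 for having none. Capitals mark CANNTG, the E-box core bound by helix-loop-helix factors, and TATAAA, each searched on both strands. Map1b lies at chr13:99516603-99516852 on the minus strand, Stmn3 at chr2:181314501-181314750 on the minus strand and Tubb3 at chr8:123411303-123411552 on the plus strand.
Map1b: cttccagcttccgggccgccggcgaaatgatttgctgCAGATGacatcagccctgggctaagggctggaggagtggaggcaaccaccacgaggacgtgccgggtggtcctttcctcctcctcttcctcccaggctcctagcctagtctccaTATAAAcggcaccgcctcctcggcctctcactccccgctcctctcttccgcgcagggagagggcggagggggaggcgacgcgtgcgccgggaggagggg
Stmn3: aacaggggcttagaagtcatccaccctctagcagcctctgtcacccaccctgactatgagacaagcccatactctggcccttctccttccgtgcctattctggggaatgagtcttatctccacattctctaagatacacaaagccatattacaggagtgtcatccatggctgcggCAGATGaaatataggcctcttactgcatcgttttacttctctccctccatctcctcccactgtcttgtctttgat
Tubb3: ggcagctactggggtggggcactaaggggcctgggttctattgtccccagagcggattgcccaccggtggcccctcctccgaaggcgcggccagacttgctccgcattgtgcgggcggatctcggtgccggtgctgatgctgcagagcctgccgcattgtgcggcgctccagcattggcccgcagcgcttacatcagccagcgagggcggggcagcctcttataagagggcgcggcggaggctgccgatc
Map1b and Stmn3 each held 1 E-box core with the same letters, CAGATG, 213 and 75 bases before the start. Of 32851 windows of this length, 66.2% held a CANNTG, 14.4% held CAGATG on either strand, which is a form of CANNTG, and 12.4% held TATAAA. The TATAAA of Map1b began 99 bases before its start. The windows of Tubb3 and Basp1 held neither motif. Both windows of Dcx, which overlap, held the same TATAAA, 98 and 193 bases before their starts, and no CANNTG. Neither of these Dcx starts is the end of the annotated gene. G or C made up 66.4% of the bases for Map1b, 48.8% for Stmn3, 68.0% for Tubb3, 78.8% for Basp1 and 41.6% and 44.8% for the Dcx windows, against a median of 52.4%. These are matches of letters only.

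Over all 20 probe sets, 11 rose at P3 and 10 at P6 relative to E18 and 0 fell, against 11.5% and 8.76% of 34945 probe sets that were higher and 17.1% and 12.4% that were lower. Without either E18 array fewer of the 20 were called at P3, and the share of all probe sets called in those fits was not worked out. The other probe sets disagreed mainly on P3 replicate 2 and P6 replicate 1. For 6 of the 20, both of these arrays exceeded all 4 others, against 15.7% of all probe sets. They were the 3 of Map1b, 2 of Dcx and 1 of Dpysl3. The Dcx probe set with the widest spread had 6.45 and 6.40 on E18 arrays, 6.36 and 10.81 on P3 arrays, and 10.04 and 6.43 on P6 arrays. P3 replicate 2 and P6 replicate 1 were high and the other 4 arrays lay close together. Those 4 values were near the median of all probe sets on their arrays (6.41 to 6.45).

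The dimmest Map1b probe set had 5.30 and 5.43 on E18 arrays, 6.00 and 10.45 on P3 arrays, and 7.61 and 6.00 on P6 arrays. P3 replicate 2 stood far above the others, which, apart from P6 replicate 1, lay below the median of all probe sets on their arrays. The P3 mean thus rests on P3 replicate 2. This probe set passed in neither comparison with E18. The next Map1b probe set below the brightest passed in both, at 2.34 for P3 (limma adjusted p = 0.0186) and 2.23 for P6 (0.024). It too was highest on P3 replicate 2 and P6 replicate 1. The dimmest Dpysl3 probe set had 8.89 and 8.92 on E18 arrays, 9.78 and 11.41 on P3 arrays, and 11.70 and 9.74 on P6 arrays, again high on the same pair of arrays. Another Dpysl3 probe set had 11.78 and 11.77 on E18 arrays, 12.77 and 11.46 on P3 arrays, and 12.78 and 13.14 on P6 arrays. On P3 replicate 2 it thus lay below E18. Relative to E18, neither it nor the dimmest passed at P3 (limma adjusted p = 0.528 and 0.118) or P6 (0.0884 and 0.129). P3 replicate 2 and P6 replicate 1 were also the arrays with high 18S signal. The part of RNA quality in these values was not tested, nor was that of 18S beyond fits with it as a covariate.

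**Figure D3:**
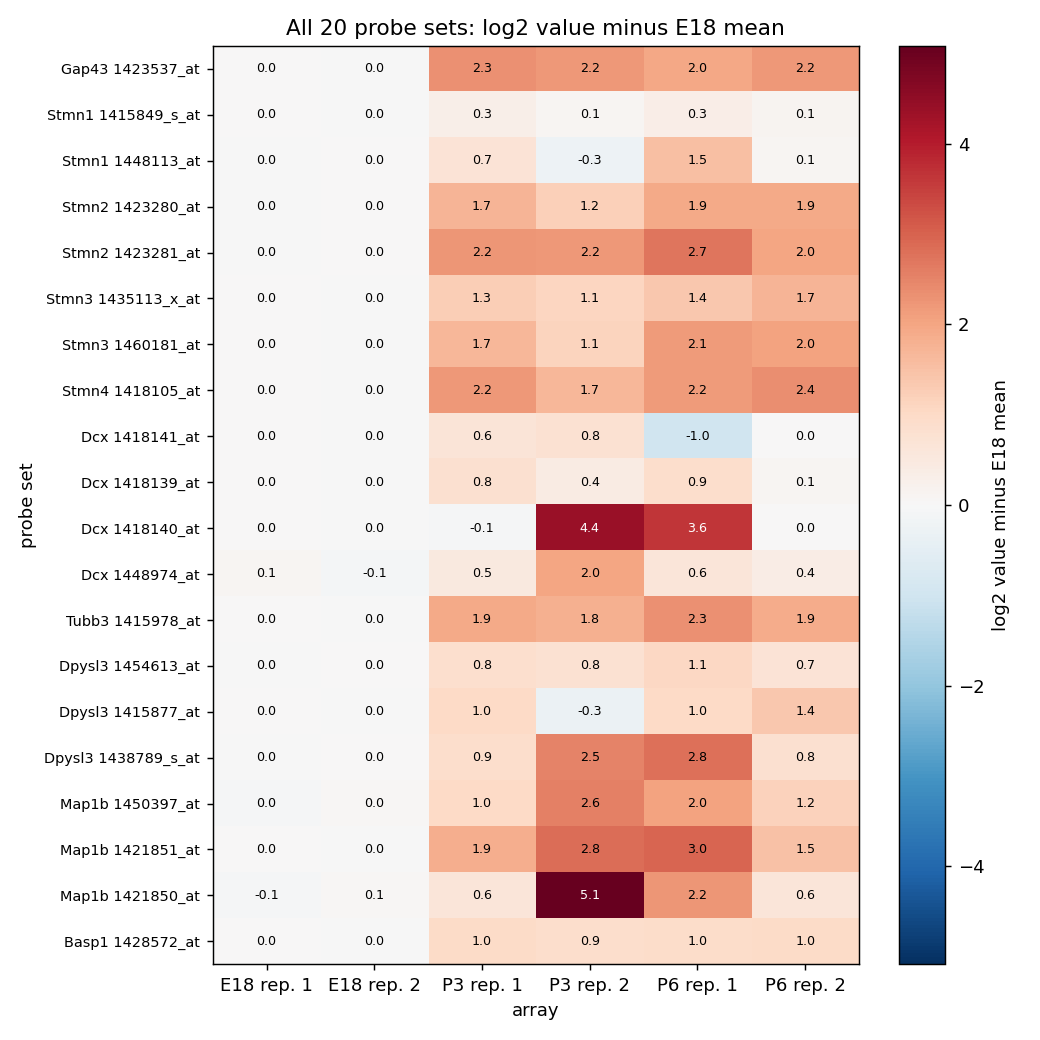
Each row is a probe set and each column an array; colours and numbers give the log2 value minus the mean of the E18 arrays. The Gap43 and Basp1 rows are even across the 4 later arrays, while 6 rows of Dcx, Dpysl3 and Map1b peak on P3 replicate 2 and P6 replicate 1.

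Between P3 and P6 the changes ran from -1.22 (Dcx) to 0.46 (Stmn2), with a median of 0.04 against 0.16 over all genes, and 0 of 10 genes were called (0% of 13645 genes were; limma found 2696 genes and 1 of the 10, Dcx, at an unadjusted p under 0.05). The intervals still allow sizeable change, from -1.39 to 1.02 for Map1b, down to -1.97 for Dcx and up to 0.95 for Stmn2. Without P3 replicate 1, Stmn2 and Stmn4 were called higher (limma adjusted p = 0.0171 and 0.0482), as were 24.4% of all genes in that fit. The P6 arrays lay wholly above the P3 arrays for Stmn2 and Stmn3 (30.6% of all genes did) and wholly below them for Gap43 and Dcx (13.1%).

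The change in the second interval minus that in the first was negative for all 10 genes. Their median was -1.30, against 0.35 over all genes tested. The P3 arrays enter both intervals, so a gene that rose at P3 and then stayed level also comes out negative. Of the 10 genes, 5 passed the test, against 5.28% of all genes called lower and 16.7% called higher, or 22% in either direction. These were Gap43 at -2.46 ± 0.31 (SE, limma adjusted p = 0.00304), Tubb3 at -1.59 (adjusted p = 0.0286), Stmn4 at -1.61 (0.0331), Basp1 at -0.92 (0.0402) and Dcx at -1.93 (0.0462). In the separate fit of all probe sets, Gap43 (limma adjusted p = 0.00689) and Tubb3 (0.0442) passed. There Stmn4 (0.0512), Basp1 (0.0765) and the brightest Dcx probe set (0.0718) did not. The next brightest Dcx probe set gave -0.70 (0.376). Gap43 alone kept its call without either E18 array and with E18 averaged. With single arrays left out, these changes ran from -2.56 to -2.35 for Gap43, -1.80 to -1.38 for Tubb3 and -2.12 to -1.11 for Stmn4. They ran from -0.98 to -0.86 for Basp1 and -2.43 to -1.43 for Dcx. The calls held less well, as given below. With sample numbers as a replicate block 4 of the 10 were called, against 592 of all 13645 genes called lower and 2131 called higher.

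Profiles over the 6 arrays, each centred on its own mean, were compared by the root mean square difference. Nearest to Gap43 among genes outside the set were Erc2 (0.0457 log2 units), an active zone scaffold gene, the calmodulin-dependent kinase kinase gene Camkk2 (0.0702) and the sodium-calcium exchanger gene Slc8a1 (0.0909). Within the set, Stmn4 (0.244) and Tubb3 (0.274) were the closest to Gap43, at places 62 and 100 of 13644 genes, and Dcx (1.09) was the farthest. Nearest to Dcx were Ndufaf4 (0.111), an assembly factor gene of respiratory complex I, the cadherin gene Cdh8 (0.162) and Igf2bp1 (0.180), which encodes an RNA-binding protein. Igf2bp1 rose to 8.43 and 8.85 at P3, against 7.83 and 7.67 at E18, and had 7.21 and 7.83 at P6 (limma adjusted p = 0.0404 for the P3 change). These arrays share stage and array quality, so likeness here is a description.

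Other cytoskeleton genes were called in both directions, and their counts at P3 stand against 15.5% higher and 25.7% lower among all genes. Of 20 microtubule regulators, 6 rose and 3 fell at P3, with a median of 0.47. Nde1, a dynein partner needed in dividing progenitors, fell to 5.91 and 5.92 at P3, against 10.29 and 10.25 at E18 (limma adjusted p = 1.25e-05). Its P3 values lie under the 5.97 at which genes were filtered by mean, so no fold is given. The doublecortin relative Dclk1 rose 4.74-fold (adjusted p = 0.000741) and Dpysl2, another gene of the CRMP family, rose 4.07-fold (adjusted p = 0.000297). Of 10 tested tubulins, 5 rose and 1 fell, with a median of 0.58. Tuba4a rose to 10.34 and 11.22 at P3, against 8.02 and 8.14 at E18 (6.50-fold, adjusted p = 0.00174), Tubb4a rose 2.93-fold (adjusted p = 0.0053), and Tubb4b was 2.73-fold lower (adjusted p = 0.00344). Tubb4b stood at 12.25 and 12.38 at P6, close to its 12.51 and 12.54 at E18.

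Actin regulators had the lowest list median, 0.22, with 4 of 18 higher and 1 lower at P3. Wasf1, a subunit gene of the WAVE complex that starts branched actin, rose 4.44-fold (limma adjusted p = 0.000573), the thymosin gene Tmsb10 rose 1.47-fold (0.015), and Vasp, an actin polymerisation factor gene, fell 2.30-fold (0.017). Of 16 tested kinases and RNA-binding regulators of these proteins, 5 rose and 1 fell, with a median of 0.52. Prkcb, a protein kinase C gene, rose 5.83-fold (adjusted p = 0.000572), the calcineurin subunit gene Ppp3ca 4.03-fold (0.000628) and the JNK kinase gene Mapk10 3.07-fold (0.00249). Protein kinase C is known to phosphorylate GAP43, and JNK to phosphorylate stathmins and doublecortin. All 6 neurofilament and axon initial segment genes rose, with a median of 1.57, led by Nefl at 5.02-fold (adjusted p = 0.000263), Ank3 at 4.03-fold (0.00138) and Nefm at 3.11-fold (0.00165). Neurofilaments and ankyrin G are known from the mature axon. Relative to E18 at P6, 9 of 20 microtubule regulators were higher and 2 lower, and 4 of 10 tubulins and 3 of 18 actin regulators were higher. Of 16 kinase and RNA-binding genes 6 were higher and 1 lower, and all 6 neurofilament and initial segment genes were higher. Over all genes tested, 14.8% were higher at P6 and 16.9% lower. Between P3 and P6 limma called 0 genes of these lists, as of all genes.

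**Figure D4:**
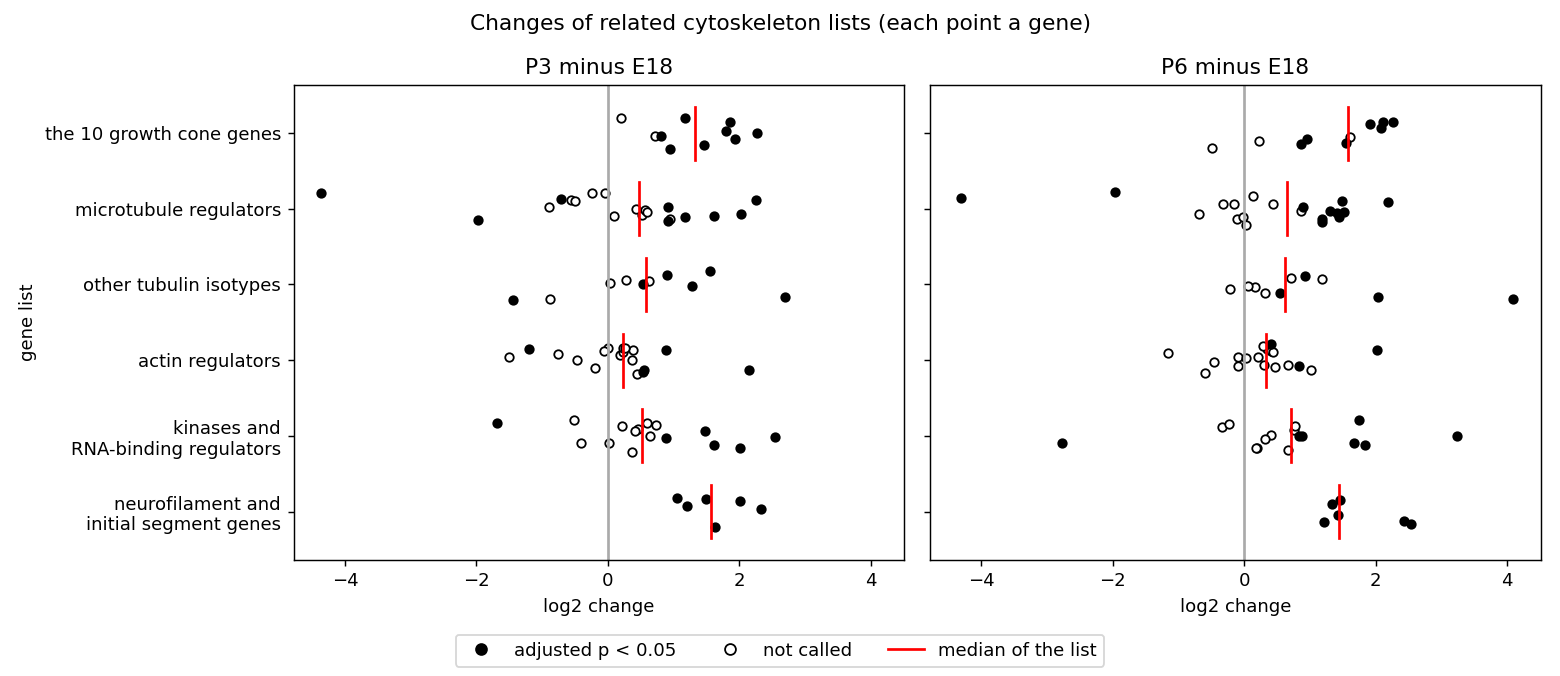
Log2 changes (horizontal axis) of the 10 genes and of 5 related lists (vertical axis) at P3 and P6 relative to E18; each point is a gene, filled where the adjusted p was below 0.05, and red bars are list medians. The 10 genes and the neurofilament list lie mostly above 1, while the other lists spread to both sides of 0.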

How the data were processed

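The authors deposited log2 expression values per probe set, computed by RMA according to the submitters' processing notes. The RMA version, and whether it took all 6 arrays at once, are not given in these sources. Deposited values entered the fits unchanged, and arrays carry no read depth. Per the labels, the RNA was amplified and biotinylated before hybridization.

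Of 45101 probe sets, the 34945 with a single symbol in the platform annotation were used, and the brightest over all arrays stood for its gene. Genes in the lowest 25% by mean (under 5.97) were dropped. A model of the 3 stage means was fitted to the 6 arrays (limma 3.58.1, R 4.3.3, intensity trend, 3 residual degrees of freedom, 2-sided tests), with Benjamini-Hochberg adjustment over 13645 genes. The procedure was tested on simulated data. A separate fit without a filter held every probe set with a single symbol. With 2 arrays per stage, their number limits the precision.

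The genes, the related lists and the markers were chosen with earlier results of these data known. Named by rule were the 10 genes, the 3 genes of each related list with the smallest p at P3, and the 3 profiles nearest to Gap43 and to Dcx. Some listed genes, Tuba1b, Tuba1c and Rock2 among them, had no probe set with a single symbol. Sample numbers were not taken as pairs: replicate differences correlated at -0.20 between E18 and P3, 0.04 between E18 and P6 and -0.14 between P3 and P6. Alternatives covered the probe set choice, filter, scaling, stages in the fit, covariates, array weights, replicate block and left-out arrays.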

Additional observations from a re-analysis of the deposited data

How the results depend on the processing

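Gap43, Stmn2, Stmn3, Stmn4, Tubb3 and Basp1 kept their direction and call in both comparisons with E18 under every alternative run. With single arrays left out, 6 to 8 of the 10 genes were called at P3 and 6 to 8 at P6 relative to E18. With sample numbers as a replicate block 8 were called in each comparison with E18. Over all genes that fit called 13.5% higher at P3 and 13.6% higher at P6, with 3359 and 2205 genes lower. Basp1 lost its call in the second interval minus the first there (limma adjusted p = 0.0847). Pairing the numbers crosswise between P3 and P6, chosen after seeing the data, gave 0 of the 10 and 253 genes.

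Without P3 replicate 2 and P6 replicate 1 together, an alternative also chosen after seeing the data, 10 genes were called at P3 and 9 at P6 relative to E18, 5 between P3 and P6 (2 higher, 3 lower) and 10 in the second interval minus the first. Over all genes it called 10871, 10225, 6977 and 9395, and 19 and 16 of the 20 probe sets relative to E18. That fit has a single residual degree of freedom, from the E18 pair, and assumes that the lone later arrays vary like E18. The share of all probe sets called in it was not worked out.

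The count of all genes called was 2397 to 7871 at P3 and 2338 to 6161 at P6 relative to E18, 0 to 3922 between P3 and P6, and 1253 to 6429 in the second interval minus the first when single arrays were left out. The lowest counts relative to E18 came without E18 replicate 2, and the 3922 and 6429 without P3 replicate 1. Of the 20 probe sets, 5 to 13 were then called at P3 and 7 to 12 at P6. With E18 averaged the counts were 2452, 2366 and 1258 genes (P3, P6, and second minus first interval), and with the hybridization control as a covariate 2263, 2485 and 983. Array weights gave 1805 for the last.

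Over all genes tested, 720 were called lower in the second interval minus the first, and 1380 were with quantile normalization. The number was 549 with every probe set tested, 892 with no filter and 625 without the trend. Median centring gave 511, the hybridization covariate 198 and array weights 266. Of the 10 genes, 5 were called in the second interval minus the first, and this count moved most. It was 8 with quantile normalization, 3 with every probe set tested, with no filter or without the trend, 2 with median centring or the hybridization covariate, and 1 with E18 averaged or array weights. Single arrays left out gave 1 to 5. Between P3 and P6 they gave 0 to 2, the 2 being Stmn2 (0.72, limma adjusted p = 0.0171) and Stmn4 (0.58, adjusted p = 0.0482) without P3 replicate 1.

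Small changes turned sign. Between P3 and P6, quantile normalization gave -0.048 for Stmn1, -0.022 for Dpysl3 and -0.036 for Basp1, and the 18S covariate 0.0091 for Map1b. Leaving out both of those arrays gave -0.19 for Stmn1, -0.0065 for Tubb3, -0.15 for Dpysl3, 0.17 for Map1b and -0.0033 for Basp1. Leaving out single arrays gave -0.084 to 0.13 for Stmn1, -0.12 to 0.24 for Dpysl3, -0.97 to 0.60 for Map1b and -0.0099 to 0.051 for Basp1. For Dcx at P6 relative to E18, the mean of its probe sets gave 0.58, the hybridization covariate 0.13, both arrays left out 0.0027, and single arrays left out -0.997 to 0.0027. For Stmn1 in the second interval minus the first, the mean of probe sets gave 0.086 and single arrays left out -0.39 to 0.028. The cause was not tested for these. The share of calls that were higher in the second interval minus the first was 55.5% with quantile normalization, against 76% in the deposited scaling.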
